A study of Bos taurus with 12 samples.

Results

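The insulin-like growth factor (IGF) system was followed through the ligand mRNAs IGF1 and IGF2, the receptor mRNAs IGF1R and IGF2R, and the binding-protein mRNAs IGFBP2, IGFBP3, IGFBP4, IGFBP5, IGFBP6 and IGFBP7, together with the circular RNAs (circRNAs) of the host gene IGF1R. They were chosen by gene name, which gave 10 of the 33714 entries of the deposited mRNA table and 5 of the 14070 circRNAs. The mRNA entries include some non-coding RNAs, and all are counted as mRNAs here. All 10 genes passed the filter on low values. The study differentiated preadipocytes isolated from the longissimus dorsi of newborn Qinchuan cattle (Bos taurus) and sequenced mRNA, circRNA and microRNA (miRNA) in the same 12 samples, here called libraries. There were 3 libraries at each of 0 d, 3 d, 6 d and 9 d of induction. Cells were induced once nearly confluent, and those of 0 d had not yet been induced. The 3 d, 6 d and 9 d cells had received dexamethasone, IBMX and insulin for the first 2 d and insulin alone from then on, so every induced group was exposed to insulin and the comparisons with 0 d carry induction and time in culture together. Every comparison with 0 d used the same 3 libraries of 0 d. The sources used do not say whether the replicates came from separate animals.

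IGF1 and IGF2 are secreted growth factors that signal through the receptor tyrosine kinase IGF1R, which passes the signal to insulin receptor substrates and phosphoinositide 3-kinase, while IGF2R, the cation-independent mannose 6-phosphate receptor, takes IGF2 into the cell for degradation and carries lysosomal enzymes. The IGF-binding proteins hold the ligands outside the cell, prolong their life and limit or direct their access to the receptor, and proteases release the ligands again. In fat tissue, IGF1 signalling is known to promote the multiplication and differentiation of preadipocytes, and at high doses insulin also acts through IGF1R.

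The gene of the miRNA miR-483 lies within IGF2, and it was the only miRNA gene inside the span of any of the 10 genes in the RefSeq gene table (assembly ARS-UCD2.0), in which all 10 were found. Its mature forms with the prefix bta in the deposited miRNA table are shown because their reads are set beside those of IGF2 later on. Left out are dno-miR-483-3p_L+1 and cpo-miR-483-3p, also of the 3′ arm, which had at most 15 raw reads in any library. The sequences run 5′ to 3′, and capitals mark the seed, bases 2 to 8.
bta-miR-483_R+2: tCACTCCTctcctcccgtcttct
bta-mir-483-p5: aGGGCGGGaagaaaggagggcg
The first is from the 3′ arm of the hairpin, 23 bases long, and the second is from the 5′ arm, 22 bases long. Their seeds differ. The table places the hairpin at chr29:49418323-49418440 on the plus strand, on coordinates that fall between the junctions of the 2 circRNAs listed for IGF2. The table does not state its genome version, and the study's methods name ARS-UCD1.2 for mapping reads.

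The mRNA values were FPKM (fragments scaled by transcript length and by the mapped fragments of the library), a level scaled for length, so that levels can be set side by side between genes. Changes were tested with limma on log2(FPKM + 0.1) over 15401 mRNAs with a mean FPKM of at least 0.1, and p-values were adjusted by the Benjamini-Hochberg method over all of them. An mRNA was called, and is said to rise or fall, when its log2 fold change was beyond 1 in either direction and its adjusted p was under 0.05. Fold differences quoted as such are ratios of mean FPKM, and log2 fold changes are on the fitted scale. The deposited mRNA table does not give the read depth behind the FPKM. In these bulk samples, fewer cells of a type and less RNA per cell cannot be told apart.

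Markers of the labelled cell type were present at modest levels. Of 10 adipocyte markers listed, 8 were analysed, and their summed FPKM was 21.2, 22.9 and 23.4 (0 d), 114.9, 103.1 and 110.6 (3 d), 47.9, 46.02 and 47.5 (6 d), and 47.1, 39.2 and 46.9 (9 d). The sum was highest at 3 d because of the fatty-acid carrier FABP4, which stood at 94.7, 86.2 and 92.3 FPKM there against 3.36, 3.02 and 3.52 at 0 d, while ADIPOQ, the gene of the adipocyte hormone adiponectin, stayed at 1.64 FPKM or less in every library. Of the 8, limma called 4 higher and 2 lower at 3 d vs. 0 d, and 5 higher at 6 d and at 9 d. Of all tested mRNAs, 8.06% were higher with 15.2% lower (3 d), 3.39% with 7.97% (6 d) and 3.41% with 7.47% (9 d). The 2 lower at 3 d were CIDEA, with means of 11.9, 5.81, 7.26 and 6.11 FPKM over the 4 days, and the hormone gene LEP, with 2.34, 0.07, 8.02 and 20.5. Fibroblast and preadipocyte markers had far larger sums, with means of 24762, 50054, 49481 and 63703 FPKM at 0 d, 3 d, 6 d and 9 d. The increase was mostly that of DCN, whose mean went from 9949 FPKM at 0 d to 42430 at 3 d, 31464 at 6 d and 44464 at 9 d. In the same list CD34 and DPP4 were barely detected. Over the 4 days the means were 0.63, 0.10, 0.02 and 0.04 FPKM for CD34 and 0.16, 0.06, 0.10 and 0.13 for DPP4. The sums therefore do not speak for every marker listed. Of these 9 markers, limma called 4 higher and 4 lower (CD34, COL1A1, COL1A2 and PDGFRB) at 3 d vs. 0 d, 3 higher and 2 lower at 6 d, and 2 higher and 1 lower at 9 d, where 23.3%, 11.4% and 10.9% of all tested mRNAs were called in either direction.

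Among the 10 IGF mRNAs, 4 were called at 3 d vs. 0 d, 3 higher and 1 lower, where 23.3% of all tested mRNAs were called, 8.06% higher and 15.2% lower. At 6 d vs. 0 d, 4 were called, 2 in each direction, against 11.4% of all tested, 3.39% higher and 7.97% lower. For 9 d vs. 0 d the count was 3, of which 2 were higher and 1 lower, against 10.9%, 3.41% higher and 7.47% lower. Between successive days, 4 were called at 6 d vs. 3 d, 2 in each direction, against 19.1%, 9.85% higher and 9.23% lower. At 9 d vs. 6 d, 1 was called, a fall, against 4.43%, 2.55% higher and 1.89% lower. With so few genes, a count of 3 or 4 is a description of these genes and no measure of the system against the transcriptome.

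The median log2 fold change of the 10 mRNAs was small in each comparison, as was that of all tested mRNAs. It was 0.15 against −0.06 at 3 d vs. 0 d, −0.08 against −0.15 at 6 d vs. 0 d, and −0.04 against −0.19 at 9 d vs. 0 d. The successive steps gave −0.19 against −0.09 at 6 d vs. 3 d and 0.08 against −0.04 at 9 d vs. 6 d. These small medians hid individual changes of opposite sign, from −3.65 for IGFBP6 to 2.90 for IGF1 at 3 d vs. 0 d.

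**Figure D1:**
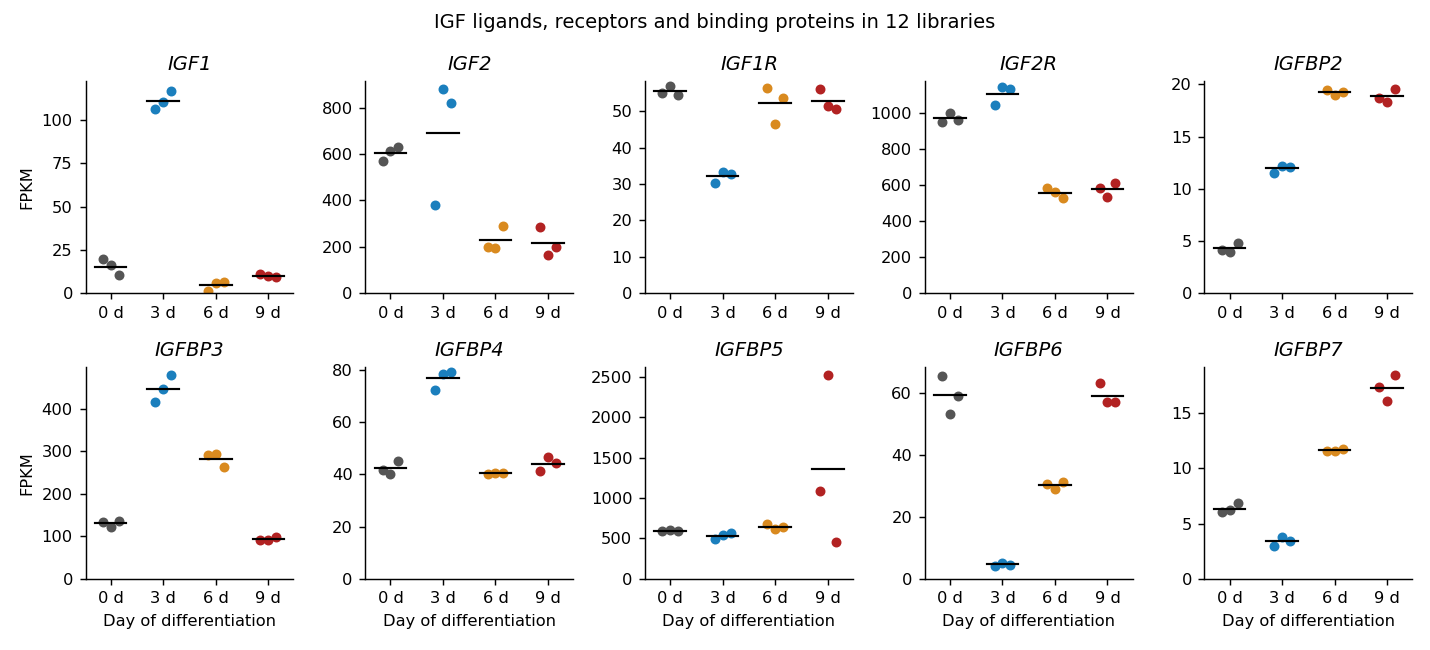
FPKM of the 10 IGF mRNAs in each of the 12 libraries by day of induction, with points for libraries and black lines for the mean of each day. IGF1 and IGFBP3 peak at 3 d, IGFBP6 is lowest at 3 d, and 1 library at 9 d holds 2526 FPKM of IGFBP5.

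Of the ligands, IGF1 peaked sharply at 3 d and then dropped below its starting level. Its FPKM was 19.5, 16.2 and 10.3 (0 d), 106, 111 and 117 (3 d), 1.17, 5.88 and 6.25 (6 d), and 11.2, 9.72 and 9.38 (9 d). The 3 d libraries stood above all others and the 6 d libraries below all others, with no overlap between those days and 0 d, although 6 d replicate 1 was well below its 2 companions. The mean was 7.26-fold higher at 3 d than at 0 d, a called rise (limma, log2 fold change 2.90 ± 0.52 SE, adjusted p = 0.000941). From 3 d to 6 d it became 25.1-fold lower (limma, log2 fold change −4.94 ± 0.52 SE, adjusted p = 2.87e-05), the largest log2 change of any of the 10 mRNAs over the 5 comparisons.

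IGF1 at 6 d was also called below 0 d (limma, log2 fold change −2.04 ± 0.52 SE, adjusted p = 0.0125). Without 6 d replicate 1 the log2 fold change was −1.28 at 6 d vs. 0 d and −4.18 at 6 d vs. 3 d, both still called. The call at 6 d vs. 0 d was lost when only the 6 libraries compared entered the fit, where the log2 fold change was again −2.04 and the adjusted p from limma was 0.0728; over all alternatives the adjusted p ran from 0.00241 to 0.0728. The 9 d values of IGF1 lay above those of 6 d and overlapped those of 0 d, and neither 9 d vs. 0 d nor 9 d vs. 6 d was called (limma, log2 fold change −0.55 ± 0.52 SE, adjusted p = 0.452, and log2 fold change 1.48 ± 0.52 SE, adjusted p = 0.0748). Without 6 d replicate 1 the log2 fold change at 9 d vs. 6 d was 0.72, and without 6 d replicate 3 it was 1.88 and called (limma, adjusted p = 0.044, in a range over all alternatives from 0.044 to 0.182).

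IGF2, the more abundant ligand in every library, kept a high level to 3 d and was lower from 6 d on. Its FPKM was 569, 615 and 628 (0 d), 379, 879 and 818 (3 d), 198, 193 and 291 (6 d), and 287, 165 and 199.6 (9 d). All 6 libraries of 6 d and 9 d lay below all 6 libraries of 0 d and 3 d, while the 3 d libraries spread on both sides of 0 d. The mean fell 2.65-fold by 6 d (limma, log2 fold change −1.43 ± 0.32 SE, adjusted p = 0.00585) and 2.78-fold by 9 d (limma, log2 fold change −1.51 ± 0.32 SE, adjusted p = 0.0042). The drop lay between 3 d and 6 d (limma, log2 fold change −1.54 ± 0.32 SE, adjusted p = 0.00261). The differences at 3 d vs. 0 d and at 9 d vs. 6 d were not called, at 0.10 and −0.08.

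The proportion of the 2 ligands therefore set 3 d apart, while 0 d and 6 d overlapped. The ratio of IGF2 to IGF1 FPKM was 29.2 to 60.9 (0 d), 3.56 to 7.94 (3 d), 32.9 to 169.6 (6 d) and 16.96 to 25.6 (9 d). The 3 d range lay below those of all other days, with IGF2 still the larger value in each library.

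**Figure D2:**
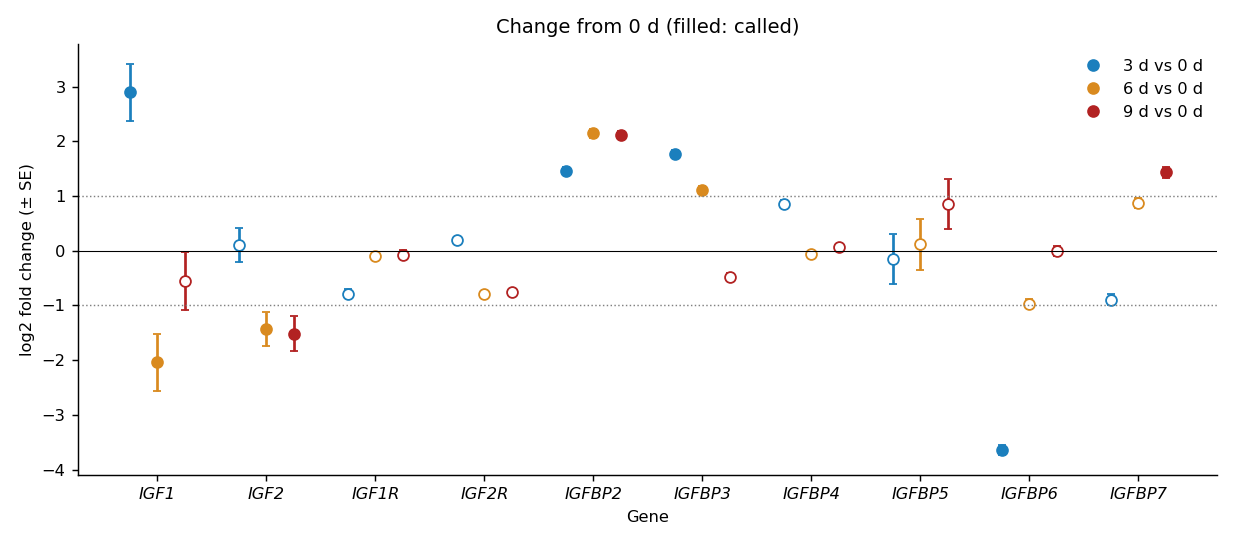
Log2 fold changes of the 10 IGF mRNAs from the limma fit at 3 d, 6 d and 9 d vs. 0 d, with bars of 1 SE, filled points for called changes and open points for the others. IGF1 and IGFBP6 move the most and in opposite directions at 3 d vs. 0 d, at 2.90 and −3.65.

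The signalling receptor IGF1R was lowest at 3 d, when IGF1 was highest. Its FPKM was 55.1, 57.04 and 54.5 (0 d), 30.4, 33.4 and 32.8 (3 d), 56.5, 46.5 and 53.7 (6 d), and 56.1, 51.5 and 50.7 (9 d). The 3 d libraries lay below all 9 others, which overlapped one another. The 3 d difference was significant yet short of the fold threshold, and so was not called (limma, log2 fold change −0.79 ± 0.08 SE, adjusted p = 1.54e-05). The same holds for the step back from 3 d to 6 d (limma, log2 fold change 0.69 ± 0.08 SE, adjusted p = 4.91e-05). At 6 d and 9 d the log2 difference from 0 d was −0.09 and −0.07, and both became positive, at 0.08 and 0.13, when the FPKM were rescaled by the median ratio between libraries.

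The scavenging receptor IGF2R was the most abundant of the 10 mRNAs at 0 d and 3 d. Its FPKM was 948, 999 and 961 (0 d), 1041, 1146 and 1134 (3 d), 583, 562 and 528 (6 d), and 581, 534 and 612 (9 d). The libraries of 6 d and 9 d overlapped each other and lay below every library of 0 d and 3 d. No comparison was called, although the adjusted p was small, at 6 d vs. 0 d (limma, log2 fold change −0.80 ± 0.06 SE, adjusted p = 6.43e-06) and 9 d vs. 0 d (limma, log2 fold change −0.75 ± 0.06 SE, adjusted p = 1.11e-05). The step from 3 d to 6 d came closest (limma, log2 fold change −0.99 ± 0.06 SE, adjusted p = 7.10e-07), and it was called without 3 d replicate 1, at −1.03, and without 6 d replicate 1, at −1.02. The ratio of IGF2R to IGF1R FPKM had a mean of 17.4 (0 d), 34.4 (3 d), 10.7 (6 d) and 10.9 (9 d).

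The binding proteins divided by the day of their highest level. IGFBP3, the main carrier of IGFs in blood, peaked at 3 d. Its FPKM was 134, 123 and 137 (0 d), 416, 447 and 479.6 (3 d), 290.2, 294 and 264 (6 d), and 91.3, 90.9 and 98.2 (9 d). No 2 days overlapped, and 9 d was the lowest. IGFBP3 rose 3.42-fold by 3 d (limma, log2 fold change 1.77 ± 0.07 SE, adjusted p = 1.75e-08) and was still 2.16-fold above 0 d at 6 d (limma, log2 fold change 1.11 ± 0.07 SE, adjusted p = 1.48e-06). It then fell 3.03-fold between 6 d and 9 d (limma, log2 fold change −1.60 ± 0.07 SE, adjusted p = 6.18e-07), the 1 fall called in that step. At 9 d vs. 0 d it was not called (limma, log2 fold change −0.49 ± 0.07 SE, adjusted p = 0.000477).

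IGFBP4, which mainly restrains IGF action and is cleaved by the protease PAPPA, was also highest at 3 d. Its FPKM was 41.6, 40.2 and 45.2 (0 d), 72.5, 78.6 and 79.3 (3 d), 40.1, 40.4 and 40.7 (6 d), and 41.3, 46.7 and 44.4 (9 d). The 3 d libraries stood clear of all others, whereas the remaining 3 days lay close together. The change did not reach the fold threshold in either direction (limma, log2 fold change 0.86 ± 0.07 SE, adjusted p = 2.20e-06 at 3 d vs. 0 d, and log2 fold change −0.92 ± 0.07 SE, adjusted p = 1.73e-06 at 6 d vs. 3 d).

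IGFBP6, a binding protein with a preference for IGF2, had the reverse course. Its FPKM was 65.3, 53.3 and 58.9 (0 d), 4.27, 5.02 and 4.57 (3 d), 30.5, 28.9 and 31.1 (6 d), and 62.98, 57.02 and 56.97 (9 d). The 3 d libraries were the lowest by far, 6 d lay between, and 9 d overlapped 0 d. IGFBP6 fell 12.8-fold by 3 d (limma, log2 fold change −3.65 ± 0.09 SE, adjusted p = 6.02e-10), the largest fall from 0 d among the 10 mRNAs, and rose again 6.53-fold from 3 d to 6 d (limma, log2 fold change 2.68 ± 0.09 SE, adjusted p = 7.20e-09).

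At 6 d the IGFBP6 mRNA was still lower than at 0 d but not called (limma, log2 fold change −0.97 ± 0.09 SE, adjusted p = 1.93e-05), and it was called without 0 d replicate 2, at −1.04. The step from 6 d to 9 d was likewise just short (limma, log2 fold change 0.96 ± 0.09 SE, adjusted p = 5.10e-05) and was called after median-ratio rescaling, at 1.00. At 9 d vs. 0 d the log2 fold change was −0.00, and it became 0.21 after that rescaling.

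IGFBP2, a binding protein that mostly restrains IGF action, and IGFBP7, a relative with low affinity for IGFs, were both higher late than at the start. The FPKM of IGFBP2 was 4.10, 3.95 and 4.84 (0 d), 11.6, 12.2 and 12.1 (3 d), 19.5, 19 and 19.3 (6 d), and 18.7, 18.4 and 19.5 (9 d). Every induced library lay above every 0 d library, and 6 d and 9 d overlapped. IGFBP2 rose 2.78-fold by 3 d (limma, log2 fold change 1.46 ± 0.08 SE, adjusted p = 1.44e-07), 4.48-fold by 6 d (limma, log2 fold change 2.14 ± 0.08 SE, adjusted p = 3.85e-08) and 4.39-fold by 9 d (limma, log2 fold change 2.11 ± 0.08 SE, adjusted p = 5.24e-08), and it alone of the 10 was called at all 3 induced days.

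For IGFBP7 the FPKM was 6.01, 6.23 and 6.82 (0 d), 2.96, 3.76 and 3.43 (3 d), 11.6, 11.6 and 11.7 (6 d), and 17.4, 16.1 and 18.4 (9 d). The 4 days did not overlap, with 3 d the lowest and 9 d the highest. IGFBP7 rose 2.73-fold by 9 d (limma, log2 fold change 1.43 ± 0.09 SE, adjusted p = 2.24e-06) and 3.45-fold between 3 d and 6 d (limma, log2 fold change 1.76 ± 0.09 SE, adjusted p = 2.12e-07). Its lower level at 3 d was not called (limma, log2 fold change −0.89 ± 0.09 SE, adjusted p = 2.25e-05), nor was 6 d vs. 0 d (limma, log2 fold change 0.87 ± 0.09 SE, adjusted p = 6.16e-05), which was called after median-ratio rescaling, at 1.04.

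IGFBP5, the most abundant binding protein on each day, had 1 erratic day. Its FPKM was 596, 599 and 592 (0 d), 499, 539 and 572 (3 d), 683, 619 and 640.4 (6 d), and 1089.5, 2526 and 451 (9 d). The libraries of 0 d, 3 d and 6 d stayed within 499 to 683 FPKM, whereas at 9 d replicates 1 and 2 lay above that range, replicate 2 by far, and replicate 3 below it. None of the 5 comparisons was called, 9 d vs. 0 d included (limma, log2 fold change 0.85 ± 0.46 SE, adjusted p = 0.185). The spread of a gene was estimated over all 12 libraries together, so this wide SE was the same in every comparison. The libraries of 0 d, 3 d and 6 d did not overlap one another. At 6 d vs. 3 d the log2 fold change was 0.27, and the adjusted p from limma ran from 0.0246 to 0.772 over all alternatives. Leaving out 9 d replicate 3, 9 d vs. 0 d was called, at 1.48 (limma, adjusted p = 0.00325, in a range over all alternatives from 0.00325 to 0.589). So was 9 d vs. 6 d, at 1.36 (limma, adjusted p = 0.00969, in a range from 0.00969 to 0.849). Without 9 d replicate 2, the high library, these log2 fold changes were 0.24 and 0.12 and were not called.

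Summed over the 6 binding proteins, FPKM had a mean of 839 (0 d), 1081 (3 d), 1032 (6 d) and 1589 (9 d), with a range of 689 to 2756 at 9 d. IGFBP5 made up 71.0% (0 d), 49.6% (3 d), 62.7% (6 d) and 79.9% (9 d) of this sum on average. The mean share of IGFBP3 was 15.6%, 41.4%, 27.4% and 8.15%. The 9 d shares varied widely between libraries, at 82.5, 91.7 and 65.5% for IGFBP5 and 6.91, 3.30 and 14.3% for IGFBP3, so that replicate 3 was near the 0 d shares. The 10 IGF mRNAs together took 0.19% (0 d), 0.242% (3 d), 0.143% (6 d) and 0.181% (9 d) of all FPKM.

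**Figure D3:**
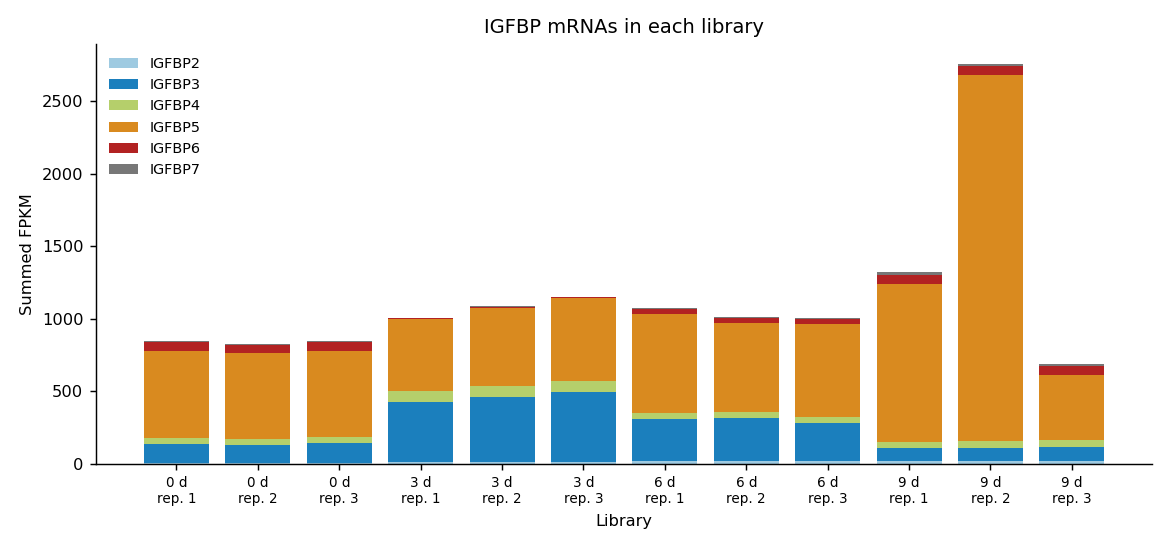
Summed FPKM of the 6 binding-protein mRNAs in each library, stacked by gene and grouped by day. IGFBP5 and IGFBP3 fill most of each bar, and the tallest bar, 9 d replicate 2 at 2756 FPKM, is mostly IGFBP5.

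In order of mean FPKM, 0 d ran IGF2R, IGF2, IGFBP5, IGFBP3, IGFBP6, IGF1R, IGFBP4, IGF1, IGFBP7 and IGFBP2, where the libraries of IGF2 and IGFBP5 overlapped, as did those of IGFBP6 and IGF1R. At 3 d the order was IGF2R, IGF2, IGFBP5, IGFBP3, IGF1, IGFBP4, IGF1R, IGFBP2, IGFBP6 and IGFBP7, with overlap between IGF2 and IGFBP5. IGF2 also overlapped IGFBP3 there, because its replicate 1 (379 FPKM) lay below all 3 libraries of IGFBP3, so the place of IGF2 among ranks 2 to 4 rests on its mean only. The 6 d order was IGFBP5, IGF2R, IGFBP3, IGF2, IGF1R, IGFBP4, IGFBP6, IGFBP2, IGFBP7 and IGF1, with overlap between IGFBP3 and IGF2. At 9 d it was IGFBP5, IGF2R, IGF2, IGFBP3, IGFBP6, IGF1R, IGFBP4, IGFBP2, IGFBP7 and IGF1, with overlap between IGFBP5 and IGF2R and between IGFBP2 and IGFBP7. IGF2R, IGF2, IGFBP5 and IGFBP3 thus held the first 4 places on each day, and IGF1 moved from rank 8 at 0 d to rank 5 at 3 d and to the last place at 6 d and 9 d.

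IGFBP2 and IGFBP5 are coding neighbours on chromosome 2 in the RefSeq table (ARS-UCD2.0), and their courses differed, IGFBP2 being called at all 3 induced days and IGFBP5 at none. IGFBP3 has the binding-protein gene IGFBP1 beside it on chromosome 4, and IGFBP1 was called lower at 3 d while IGFBP3 was called higher. IGFBP1, named here for its position after its values were seen, was barely detected, with FPKM of 0.32, 0.25 and 0.26 (0 d), 0.17, 0 and 0.12 (3 d), 0.12, 0.09 and 0 (6 d), and 0.16, 0.12 and 0.27 (9 d).

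Of the 5 circRNAs with IGF1R as host, circRNA6464 held most of the reads. It is a back-spliced exon of 546 bp at chr21:7833095-7833640 on the plus strand, and circRNA1128, of 19 exons, shares its start. The build is taken as ARS-UCD1.2 from the study's methods, whereas the sample labels name a different one. Back-splice reads of circRNA6464 were 0 in all 3 libraries at 0 d, 0, 7 and 0 at 3 d, 0 in all 3 at 6 d, and 16, 8 and 19 at 9 d. Only at 9 d did all 3 libraries hold reads. As a part of the reads listed, 9 d replicate 2, with 8 of 9686, was level with 3 d replicate 2, with 7 of 8321.

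The labels describe poly(A) selection and the study's methods removal of ribosomal RNA. Circular RNAs lack a poly(A) tail, so the library type bears on their counts and zeros, and it could not be settled from the tables.

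The other 4 IGF1R circRNAs were sparse. CircRNA1128 and circRNA1129, of 7 exons, had 2 reads each, all at 0 d. CircRNA4127, of 3 exons, had 11 reads, of which 3 were at 0 d, 5 at 3 d and 3 at 9 d. CircRNA5319, of 18 exons, had 5 reads at 3 d and 9 d. In all, 70 back-splice reads fell to IGF1R, with 7, 16, 0 and 47 at 0 d, 3 d, 6 d and 9 d, and no other circRNA junction lay within 5 bp of any of the 5.

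The back-splice reads listed ran from 5358 to 10729 per library, so most values rest on few reads. Pooled over the 3 libraries of a day, circRNA6464 took 43 of 30141 reads at 9 d, a share of 0.143% (exact 95% interval 0.103 to 0.192%). At 3 d it took 7 of 24067, or 0.0291% (exact interval 0.0117 to 0.0599%). For the days with no read, a floor of 3 reads over the group was used, a share of 0.0138% of 21816 reads at 0 d and 0.0153% of 19650 at 6 d. The exact 95% interval reached higher, to 0.0169% at 0 d and 0.0188% at 6 d. These intervals and limits cover counting error only, and reads without molecular identifiers are not independent molecules.

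Of the 5 IGF1R circRNAs, 3 had at least 5 reads and were tested with edgeR among 2828. At 9 d vs. 0 d, 1 was called, where 0.566% of all tested were called: circRNA6464 (edgeR, log2 fold change 6.69, adjusted p = 0.00307). Against the same floor of 3 reads over the 0 d group, its share at 9 d was 10.4-fold higher, and against 3 reads over the 6 d group 9.34-fold. These folds take the 9 d share as measured, 0.143%, whose interval reached down to 0.103%. The exact upper limits at 0 d and 6 d also lay above the floor, so the folds are not strict lower limits. The call was lost with DESeq2 (adjusted p = 1), with a minimum of 20 reads (edgeR, adjusted p = 0.385) and without 9 d replicate 3 (edgeR, adjusted p = 0.0632), in a range of adjusted p from 7.44e-05 to 1. The log2 fold change stayed large in these 3 settings, at 6.04, 6.69 and 6.45. At 9 d vs. 0 d, DESeq2 called 0 of all 2828 circRNAs and edgeR with the 20-read minimum 0 of 713, and for the IGF1R circRNAs each had 1 at an unadjusted p under 0.05. At 3 d vs. 0 d, edgeR called 0 of the 3 against 0.813% of all tested, with 1 at an unadjusted p under 0.05 and 0 called by DESeq2. At 6 d vs. 0 d it called 0 against 0.530%, with 0 at an unadjusted p under 0.05 and 0 by DESeq2.

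Reads in all 9 d libraries and none at 0 d or 6 d were found for 21 of the 14070 circRNAs. Among these, circRNA6464 had the most reads at 9 d. This pattern was taken from circRNA6464 itself and sets no condition on 3 d, where circRNA6464 had 7 reads. Listed reads were also most numerous at 9 d, at 30141 against 21816 (0 d), 24067 (3 d) and 19650 (6 d). The count of 21 and the rank are therefore descriptive and no independent evidence for circRNA6464. The linear IGF1R mRNA did not follow the reads of circRNA6464: its mean FPKM at 9 d was 52.8, against 55.5 at 0 d and 52.2 at 6 d.

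**Figure D4:**
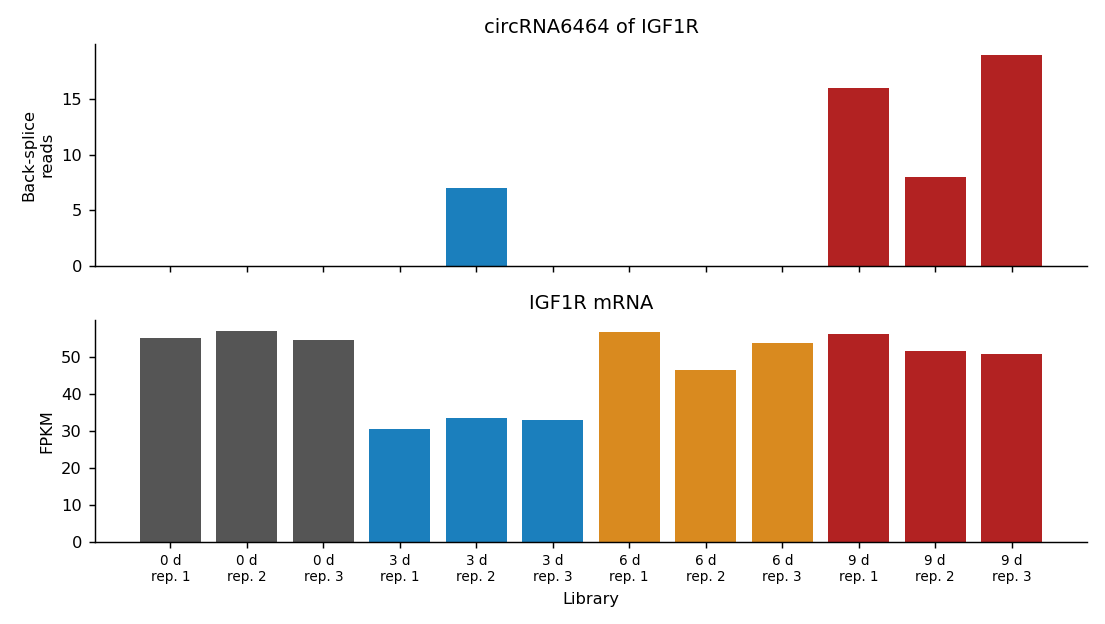
Back-splice reads of circRNA6464 and FPKM of the linear IGF1R mRNA in each of the 12 libraries by day. Reads of circRNA6464 appear in all 3 libraries at 9 d (16, 8 and 19) and in 1 library at 3 d (7), while linear IGF1R dips at 3 d.

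The 3′ form, bta-miR-483_R+2, stands for miR-483 here and was chosen for a test after its values were seen. Its raw reads were 16690, 17654 and 19565 (0 d), 33815, 45737 and 46431 (3 d), 10332, 15248 and 11888 (6 d), and 4810, 4059 and 4664 (9 d), where the table lists 1851720 to 5636256 raw reads per library. As a share of each library's listed reads this was 0.794, 0.733 and 1.06% (0 d), 1.22, 1.22 and 1.32% (3 d), 0.272, 0.271 and 0.237% (6 d), and 0.122, 0.112 and 0.113% (9 d). No days overlapped in share, with 3 d highest and 9 d lowest. Some mature sequences were listed in several entries, so the listed totals may count a sequence repeatedly. In the authors' normalized signal, 0 d replicate 3, at 42945, overlapped the 3 d libraries, at 38247, 37482 and 42933.

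Tested with edgeR on the rounded estimated counts of 1180 miRNA entries, miR-483 fell by 6 d (log2 fold change −1.72, adjusted p = 6.41e-05) against 11.4% of all tested called, and by 9 d (edgeR, log2 fold change −2.66, adjusted p = 1.19e-06) against 19.4%. It also fell from 3 d to 6 d (edgeR, log2 fold change −2.23, adjusted p = 2.87e-05), where 3.90% were called. The values at 3 d vs. 0 d (edgeR, 0.51, adjusted p = 0.172; 6.02% called) and 9 d vs. 6 d (edgeR, −0.94, adjusted p = 0.0528; 0.339% called) were not called, and the latter was called without 6 d replicate 3, at −1.01 (edgeR, adjusted p = 0.0483, in a range over alternatives from 0.00382 to 0.221). IGF2 mRNA was called in the same 3 comparisons, all lower.

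The imprinted non-coding RNA H19 lies between IGF2 and the coding neighbour MRPL23 in the RefSeq table (ARS-UCD2.0). Its FPKM was 25.7, 26.1 and 26.7 (0 d), 24.6, 27.2 and 25.9 (3 d), 7.68, 7.40 and 8.32 (6 d), and 6.54, 5.99 and 7.04 (9 d). The 0 d and 3 d libraries overlapped, and all of 6 d lay above all of 9 d and far below 0 d. H19 fell at 6 d (limma, log2 fold change −1.73 ± 0.08 SE, adjusted p = 1.20e-07) and 9 d (limma, log2 fold change −1.99 ± 0.08 SE, adjusted p = 6.81e-08), so IGF2, miR-483 and H19 all stood lower at 6 d and 9 d than at 0 d and 3 d in every library.

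**Figure D5:**
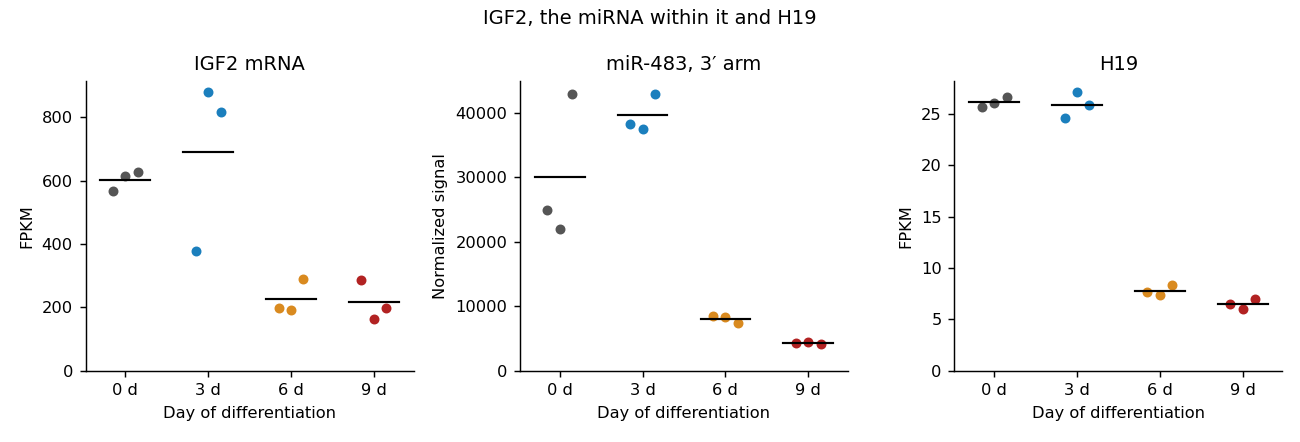
FPKM of IGF2 and H19 and normalized signal of the 3′ form of miR-483 in each of the 12 libraries by day, with black lines for the mean of each day. For each of the 3, all libraries of 6 d and 9 d lie below all libraries of 0 d and 3 d.

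Other IGF pathway genes came in 5 lists of 52 genes, of which 51 were analysed and 44 tested, and they gave 10 higher and 8 lower at 3 d vs. 0 d, where 8.06% of all tested mRNAs were called higher and 15.2% lower. The counts were 3 higher and 8 lower at 6 d vs. 0 d, against 3.39% and 7.97%, then 4 higher and 6 lower at 9 d vs. 0 d, against 3.41% and 7.47%. Their medians were −0.14, −0.19 and −0.14, beside −0.06, −0.15 and −0.19 for all tested mRNAs.

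Carriers and binding-protein relatives had 5 of 5 tested lower at 3 d vs. 0 d, where 15.2% of all tested mRNAs were lower, 3 lower at 6 d (7.97% of all tested), and 2 lower and 1 higher at 9 d (7.47% and 3.41%), at medians of −2.27, −1.22 and −1.20. IGFBP1 and ESM1, among those 5, were barely detected, with mean FPKM of 0.277 and 0.18 at 0 d, and the IGFBP1 call was marginal (limma, log2 fold change −1.05, adjusted p = 0.0495). KAZALD1 was low too, with mean FPKM of 1.35 at 0 d and 0.207 at 3 d. With a pseudocount of 1, the levels of these 3 genes stay short of the fold threshold at 3 d, so the count of 5 depends on the pseudocount. IGFALS encodes the acid-labile subunit that joins IGF and IGFBP3 or IGFBP5 in the large complex of blood. Its FPKM was 55.6, 58.9 and 63.2 (0 d), 2.11, 0 and 0 (3 d), 7.34, 9.48 and 9.08 (6 d), and 10.4, 10.2 and 13.5 (9 d). At 3 d, 2 libraries were at 0, and no library of 6 d or 9 d reached those of 0 d (limma, log2 fold change −7.72 ± 0.96 SE, adjusted p = 7.33e-05 at 3 d vs. 0 d). The size of that log2 fold change depends on the pseudocount, at −5.37 with 1 and −9.95 with 0.01, and it ran from −9.21 to −6.98 when 1 library was left out. CRIM1 at 3 d vs. 0 d (limma, log2 fold change −2.29 ± 0.17 SE, adjusted p = 1.36e-06) and KAZALD1 at 6 d vs. 0 d (limma, log2 fold change −2.35 ± 0.28 SE, adjusted p = 0.000113) were also lower. ESM1 was called higher at 9 d vs. 0 d (limma, log2 fold change 2.01 ± 0.39 SE, adjusted p = 0.00272). Its mean FPKM was 0.18 (0 d), 0.00667 (3 d), 0.0733 (6 d) and 0.977 (9 d). ESM1 thus passed the filter on low values only through 9 d, and nothing is concluded from its calls. The KAZALD1 call was lost with a pseudocount of 1, at a log2 fold change of −0.98. That of ESM1 was lost with a pseudocount of 1, at a log2 fold change of 0.74, and with 0.01, where the log2 fold change was larger, at 2.58, but the adjusted p from limma was 0.0643.

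The proteases that cleave binding proteins and the stanniocalcins that inhibit them had 3 higher and 1 lower of 7 tested at 3 d vs. 0 d, 1 higher and 1 lower at 6 d, then 2 higher at 9 d, at medians of −0.05, 0.28 and 0.42. The shares of all tested mRNAs were 8.06% higher with 15.2% lower (3 d), 3.39% with 7.97% (6 d) and 3.41% with 7.47% (9 d). PAPPA, the protease that cleaves IGFBP4 when IGF is bound, had FPKM of 17.7, 18.5 and 15.4 (0 d), 144, 98.2 and 139 (3 d), 30.1, 29.6 and 24.4 (6 d), and 31.9, 32.6 and 45.7 (9 d). It was highest at 3 d, the day of the highest IGFBP4 and IGF1 (limma, log2 fold change 2.86 ± 0.18 SE, adjusted p = 4.56e-07). Its inhibitor STC1 had 0.66, 0.57 and 0.60 (0 d), 387, 345 and 398 (3 d), 18.9, 64.8 and 56.1 (6 d), and 37.9, 40.4 and 34.3 (9 d).

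STC1 thus stood lowest in the 0 d libraries and highest in those of 3 d, a rise (limma, log2 fold change 9.05 ± 0.37 SE, adjusted p = 1.91e-08). The related inhibitor STC2 moved the other way, at 2.33, 2.44 and 2.81 (0 d), 0.05, 0.08 and 0.02 (3 d), 3.03, 3.23 and 2.99 (6 d), and 3.02, 2.92 and 4.51 (9 d) FPKM (limma, log2 fold change −4.15 ± 0.19 SE, adjusted p = 4.24e-08 at 3 d vs. 0 d), with 3 d the lowest day. At so low a level the log2 fold change of STC2 depends on the pseudocount, at −1.75 with 1 and −5.54 with 0.01. PAPPA2 was called at 3 d (limma, log2 fold change 2.88 ± 0.12 SE, adjusted p = 2.17e-08) at only 0.64, 0.76 and 0.66 FPKM, a call lost with a pseudocount of 1, where the log2 fold change was 0.74. On no other day did its mean exceed 0.0133 FPKM. PAPPA2 thus passed the filter on low values only through 3 d, the day of its call. Nothing is concluded from that call or from its part in the count for this list. CTSD, a lysosomal protease, was lower at 6 d vs. 0 d (limma, log2 fold change −1.05 ± 0.09 SE, adjusted p = 9.03e-06). That call was lost after median-ratio rescaling, where the log2 fold change was −0.88 (limma, adjusted p = 4.76e-05).

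In receptor-proximal signalling, 4 of 21 tested genes were higher and 2 lower at 3 d vs. 0 d, 2 higher and 3 lower at 6 d, then 1 higher and 3 lower at 9 d, at medians of −0.22, −0.20 and −0.30. The 6, 5 and 4 genes called at 3 d, 6 d and 9 d compare with 23.3%, 11.4% and 10.9% of all tested mRNAs, and nothing particular to the list is read from them. The insulin receptor substrates moved in opposite directions. IRS2 FPKM was 5.80, 6.27 and 6.54 (0 d), 27.6, 31.1 and 28.1 (3 d), 23.5, 25.9 and 22.1 (6 d), and 10.8, 9.35 and 10.5 (9 d), and IRS1 FPKM was 1.91, 2.23 and 1.98 (0 d), 0.75, 0.75 and 0.79 (3 d), 0.66, 0.66 and 0.69 (6 d), and 0.90, 0.83 and 0.82 (9 d). Every induced library was above 0 d for IRS2 (limma, log2 fold change 2.20 ± 0.09 SE, adjusted p = 1.71e-08 at 3 d vs. 0 d) and below it for IRS1 (limma, log2 fold change −1.47 ± 0.09 SE, adjusted p = 9.35e-07 at 6 d vs. 0 d, lost with a pseudocount of 1, at −0.86).

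The phosphoinositide 3-kinase subunit PIK3R1 rose at 3 d (limma, log2 fold change 2.23 ± 0.12 SE, adjusted p = 1.24e-07), from 25.4, 24.9 and 23.7 to 137, 108 and 107 FPKM. FOXO1, a transcription factor that insulin and IGF signalling keep out of the nucleus, rose at 3 d (limma, log2 fold change 1.71 ± 0.07 SE, adjusted p = 1.24e-08), from 5.36, 5.34 and 5.07 to 17.4, 17.04 and 17.8 FPKM. The adaptor GAB1 (limma, log2 fold change −1.53 ± 0.10 SE, adjusted p = 2.67e-06) and the subunit PIK3R3 (limma, log2 fold change −1.44 ± 0.40 SE, adjusted p = 0.0174) were lower at 9 d vs. 0 d. PIK3R3 FPKM was 4.95, 1.39 and 2.41 (0 d), 1.67, 3.58 and 2.59 (3 d), 4.42, 4.92 and 5.36 (6 d), and 0.94, 1.01 and 0.72 (9 d), with 0 d replicate 1 well above the others of its day. The PIK3R3 call was lost with a pseudocount of 1 (log2 fold change −0.95), with only the 6 libraries compared (limma, unchanged at −1.44, adjusted p = 0.0571), without 0 d replicate 1 (log2 fold change −0.98) and without 9 d replicate 3 (limma, −1.31, adjusted p = 0.0576, in a range from 0.00352 to 0.0576).

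For IGF2 mRNA binding and IGF2 transcription, limma called 0 of 5 tested at 3 d vs. 0 d, with 1 at an unadjusted p under 0.05, and H19 alone was called at 6 d and 9 d. Of all tested mRNAs, 23.3%, 11.4% and 10.9% were called on those days, so 0 or 1 call among 5 genes is near the background. The medians were −0.01, 0.06 and −0.15. In the growth hormone axis, which drives IGF1 in liver and other tissues, 3 of 6 tested genes were higher at 3 d vs. 0 d, where 8.06% of all tested mRNAs were higher, at a median of 0.96. At 6 d and 9 d limma called 0 of these 6, with 2 at an unadjusted p under 0.05 each time and medians of −0.11 and −0.10. No other tool was run on the FPKM.

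The 3 called genes of that axis were highest at 3 d. The growth hormone receptor GHR had FPKM of 9.41, 10.3 and 8.66 (0 d), 37.9, 29.2 and 37.2 (3 d), 10.4, 12.2 and 11.3 (6 d), and 8.62, 8.52 and 9.76 (9 d). The feedback inhibitor SOCS2 had 5.37, 5.78 and 5.94 (0 d), 25.7, 23.96 and 23.5 (3 d), 6.26, 3.32 and 6.10 (6 d), and 3.89, 3.13 and 2.98 (9 d), and CISH, another such inhibitor, had 24.9, 38.9 and 25.6 (0 d), 83.6, 75.01 and 99.4 (3 d), 49.9, 53.95 and 60.9 (6 d), and 46.8, 44.4 and 42.6 (9 d). For each of them the 3 d libraries lay above all 0 d libraries (limma, log2 fold change 1.86 ± 0.12 SE, adjusted p = 4.49e-07 for GHR, log2 fold change 2.08 ± 0.21 SE, adjusted p = 1.65e-05 for SOCS2 and log2 fold change 1.55 ± 0.17 SE, adjusted p = 2.86e-05 for CISH).

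The 2 mRNAs with the most similar course were found for each of the 10 genes, among 11331 mRNAs with a mean FPKM of at least 1, by the smallest root mean square difference of log2 values centred over the 12 libraries. For IGF1 they were COLEC12 at 0.662 and GRO1 at 0.716, and for IGF2 MAPK8IP1 at 0.281 and RIN2 at 0.331. IGF1R had MAPK3;GDPD3, listed under both names, at 0.0893 and URGCP;MRPS24 at 0.0919. IGF2R had TMEM63A at 0.0879 and FAM8A1;CAP2 at 0.0949.

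Among the binding proteins, IGFBP2 was nearest to NT5E at 0.215 and MFAP5 at 0.235, IGFBP3 to TSC22D3 at 0.203 and SLC16A14 at 0.257, and IGFBP4 to TMEM135 at 0.0824 and NDC1 at 0.0838. IGFBP5 was nearest to ZFP91;CNTF at 0.292 and GRB2 at 0.350, and GRB2 too was high in 9 d replicate 2, with 4.55, 14.7 and 4.63 FPKM at 9 d. The pairs for the others were, for IGFBP6, DACT1 at 0.155 and CAPG at 0.213, and for IGFBP7, ITGB8 at 0.194 and GPC1 at 0.201. Small values mean a close match only relative to how far a gene moves, and IGF1R, IGF2R and IGFBP4, which moved little, had the smallest. The match of IGFBP6 with DACT1 spans a large change, since DACT1 had mean FPKM of 828 (0 d), 82.5 (3 d), 445 (6 d) and 816 (9 d). TSC22D3, a gene known to respond to glucocorticoids, had 8.13, 34.9, 19.8 and 8.25, and like IGFBP3 it was highest at 3 d and next highest at 6 d. At 9 d vs. 0 d the 2 differed, with a log2 fold change of 0.02 for TSC22D3 and −0.49 for IGFBP3. The part of the induction agents in either course was not tested.

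Markers of other cell types moved over the same days. Skeletal muscle markers, 8 of 10 measured, summed to means of 1570.0, 487, 656 and 627 FPKM at 0 d, 3 d, 6 d and 9 d, with 7, 6 and 7 of them called lower at 3 d, 6 d and 9 d, against 15.2%, 7.97% and 7.47% of all tested mRNAs, and MYL1 the most abundant at 0 d. The 6 smooth muscle and pericyte markers summed to 2349, 244, 2427 and 989 FPKM, led by ACTA2 at 0 d, and the sum was lowest at 3 d. DES is in both lists, so the sums and counts share a gene, and at 3 d it was the most abundant smooth muscle marker, at a mean of 138.03 FPKM. MYH11 went the other way, with means of 23.3, 57.2, 33.9 and 20.6 FPKM, and was not called. Of the 5 tested, limma called 4 lower at 3 d, 2 higher at 6 d and 1 lower at 9 d vs. 0 d, where 15.2% (3 d, lower), 3.39% (6 d, higher) and 7.47% (9 d, lower) of all tested were called, and RGS5 was at 0 at 0 d and 3 d. Summed endothelial markers stayed at 2.47 to 3.49 FPKM with VWF the most abundant. The 7 blood and immune markers summed to means of 1.22, 3.63, 1.88 and 2.79 FPKM, with CD14 the most abundant and PTPRC and HBB at 0. Of the 3 tested, limma called CD14 and CSF1R higher at 3 d vs. 0 d and CD14 higher at 9 d vs. 0 d, against 8.06% and 3.41% of all tested. The part of these markers, and of the fibroblast and adipocyte markers, in the changes of the IGF mRNAs was not tested.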

How the data were processed

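The 12 libraries were grouped by day of induction (n = 3). The deposited mRNA values are FPKM, which the authors made with HISAT2 and StringTie. The deposited circRNA values are counts of back-splice reads and SRPBM. The deposited miRNA table holds estimated counts (raw reads) and a normalized signal. The authors tested with edgeR after TMM scaling. Because the mRNA table holds no counts, limma 3.58.1 (trend, R 4.3.3) was run on log2(FPKM + 0.1), with 5 comparisons between days; edgeR 4.0.16 (quasi-likelihood after TMM scaling) took circRNA counts of 5 or more reads in all and rounded miRNA counts of 10 or more. DESeq2 1.42.0, Python 3.11.15, NumPy 2.4.6, pandas 2.3.3, SciPy 1.17.1 and Matplotlib 3.10.9 were also used. The fits were tested on simulated data.

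Named were all 10 genes, every IGF1R circRNA, from each pathway list up to 3 called rises and 3 falls against 0 d with no overlap between libraries, and the 2 most similar mRNAs. Genes and lists were chosen with earlier results of these data known. Alternatives changed the pseudocount (1 or 0.01), the filters, the scaling, the tool, the libraries fitted and the replicate block, summed junctions within 5 bp, and left out each library. The alternatives for miR-483 were chosen after seeing the data.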

Additional observations from a re-analysis of the deposited data

How the results depend on the processing

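Of 50 pairs of IGF mRNA and comparison, 16 were called, and 15 of these stayed called under every alternative run, with none changing sign. The exception was IGF1 at 6 d vs. 0 d with only the 6 libraries compared. Of the 34 pairs not called, 7 were called under at least 1 alternative and 9 took the other sign under at least 1. Median-ratio rescaling moved the median of all tested mRNAs by 0.07 (3 d vs. 0 d), 0.16 (6 d vs. 0 d), 0.19 (9 d vs. 0 d), 0.08 (6 d vs. 3 d) and 0.03 (9 d vs. 6 d) on the log2 scale. It changed the split of higher to lower calls among all mRNAs from 522 and 1227 to 647 and 945 at 6 d vs. 0 d, and from 525 and 1150 to 685 and 784 at 9 d vs. 0 d.

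After rescaling, 2 IGF mRNAs were called at 9 d vs. 6 d, and log2 fold changes took the other sign for IGF1R at 6 d (0.0766) and 9 d (0.13), IGFBP4 at 6 d (0.10) and IGFBP6 at 9 d (0.21), each against 0 d, and for IGFBP2 at 9 d vs. 6 d (0.01, or 0.0088). With a pseudocount of 1, which shrinks changes at low FPKM by its construction, the pathway lists had 11, 7 and 6 genes called at 3 d, 6 d and 9 d vs. 0 d in place of 18, 11 and 10, and all mRNAs 2184, 967 and 888 in place of 3585, 1749 and 1675. Of 19 named pathway genes, 13 stayed called under every alternative. With DESeq2 or a minimum of 20 reads, 0 IGF1R circRNAs were called at 9 d vs. 0 d, as were 0 of all 2828 and 0 of all 713 tested.

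Leaving out 1 library at a time gave 1 to 2 IGF mRNAs called at 9 d vs. 6 d and 0 to 1 IGF1R circRNA called at 9 d vs. 0 d. The log2 fold change ran from −0.12 to 0.49 for IGF2 and from −3.15 to 3.73 for circRNA4127 at 3 d vs. 0 d, and from −0.0739 to 0.0731 for IGFBP6 and −0.91 to 3.01 for circRNA4127 at 9 d vs. 0 d. At 9 d vs. 6 d it ran from −0.30 to 0.11 for IGF2, from −0.0625 to 0.0785 for IGF1R and from −0.00136 to 0.10 for IGF2R.

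With replicate number as a block, all-mRNA calls were 3591, 1746, 1683, 2933 and 657 over the 5 comparisons, in place of 3585, 1749, 1675, 2939 and 683, and circRNA calls 17, 9 and 13 in place of 23, 15 and 16; circRNA4127 at 9 d vs. 0 d had 0.28. Residuals of libraries with the same number on different days had correlations of −0.10 to 0.11, 2 of 18 over 0.1, and replicate numbers were not treated as pairs. The cause of these shifts was not tested. Where IGF1R circRNAs had few reads, depth limits what could be detected.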

Other observations

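Summed over all days, no other IGF gene had as many circRNA reads as the 70 of IGF1R, of which 50 were circRNA6464. IGFBP5 had 6 circRNAs with 12 reads in all, IGF2R 4 with 6 reads, IGF2 2 with 6 reads and IGFBP4 1 with 1 read, while IGF1, IGFBP2, IGFBP3, IGFBP6 and IGFBP7 were hosts to none in the table. The 6 reads of IGF2 fell at 0 d (4) and 3 d (2). Mean FPKM over the 12 libraries was 802 for IGF2R and 48.2 for IGF1R.

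The 5′ form of miR-483 was sparse, with 12, 5 and 11 raw reads (0 d), 6, 30 and 34 (3 d), 5, 5 and 6 (6 d), and 0 in all 3 libraries of 9 d. AIRN, a non-coding RNA within IGF2R in the RefSeq table (ARS-UCD2.0) and known from mouse as a transcript that silences the paternal copy of IGF2R, had at most 1.23 FPKM in any library. The insulin receptor INSR, which shares ligands with IGF1R, had FPKM of 33.8, 35.8 and 28.1 (0 d), 33.2, 42.6 and 40.5 (3 d), 21.3, 24.6 and 22.03 (6 d), and 21.5, 22.4 and 24.6 (9 d). It was called in no comparison with 0 d, although all libraries of 6 d and 9 d lay below those of 0 d. The differences were short of the fold threshold (limma, log2 fold change −0.52 ± 0.12 SE, adjusted p = 0.00705 at 6 d, and log2 fold change −0.51 ± 0.12 SE, adjusted p = 0.00786 at 9 d).

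Wide spread between replicates, like that of IGFBP5 at 9 d, was seen in other genes of the pathway lists, named here after their values were seen. IGF2BP3, which binds IGF2 mRNA, had FPKM of 372, 370.3 and 373 (0 d), 340.4, 329 and 104 (3 d), 397, 389 and 375 (6 d), and 110.0, 349.9 and 377 (9 d). FOXO3, a transcription factor downstream of IGF1R, had 97.3, 631 and 83.4 (0 d), 469, 1893 and 1783 (3 d), 949.9, 249 and 152 (6 d), and 734, 105 and 669.8 (9 d). Among mRNAs with a mean FPKM of at least 1 on that day, the highest library was more than 2 times the lowest for 11.5% (0 d), 12.01% (3 d), 10.3% (6 d) and 9.76% (9 d).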
